A study of Mus musculus with 15 samples.

Results

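The genes described here are 6 genes of glucose sensing and electrical excitability in pancreatic islets, chosen by name: Slc2a2, Pcx, Abcc8, Kcnj11, Cacna1c and Cacna1d. They are 6 of the 48709 genes in the count table, and all 6 passed the filter on low counts that left 16554 genes for testing. Islets came from female NOD/ShiLtJ mice, a strain that develops autoimmune diabetes spontaneously, and polyadenylated RNA was sequenced from 3 mice at each of 5 ages spaced evenly from 4 to 12 weeks. All 15 mice had the NOD genotype and none was described as treated, so every comparison is one of age, and no other strain was included; insulitis, the infiltration of islets by leukocytes, is a known feature of this strain. Below, early means the 6 mice of 4 and 6 weeks and late the 6 mice of 10 and 12 weeks.

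In the mouse beta cell, glucose enters through the transporter Glut2 and is metabolised to pyruvate, part of which enters the citric acid cycle by carboxylation. The resulting ATP closes potassium channels of the KATP type, the membrane depolarises, and calcium entering through voltage-gated L-type channels triggers insulin granule release. Slc2a2 encodes Glut2, Pcx the mitochondrial pyruvate carboxylase, Abcc8 and Kcnj11 the regulatory and pore-forming subunits of the KATP channel, and Cacna1c and Cacna1d the pores of the L-type channels Cav1.2 and Cav1.3.

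Libraries held 25407492 to 41616275 counted reads, and the members received between 1838 (Cacna1c) and 57583 (Slc2a2) counts in a sample. The label of islet tissue was checked against markers: the 8 beta-cell markers, among them Ins1 and Ins2, were above 0 in every library. The 22 leukocyte markers summed to 48.2 to 268 CPM (read counts scaled to a common library size) in early, 176 to 986 in 8-week and 1027 to 2431 in late samples, and all 22 rose from 4 to 12 weeks. The 12 mesenchymal and smooth muscle markers summed to 503 to 804 CPM early and 980 to 2293 late. Reads of 12 intestinal markers summed to 43.0 to 87.1 CPM in 13 libraries, but to 131 in replicate 2 of 6 weeks and 446 in replicate 1 of 12 weeks; without both libraries all 6 members still passed the test at 12 against 4 weeks and in late against early samples. Because whole islets were sequenced, fewer cells of a type and less RNA per cell cannot be told apart in any value below.

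All 6 members were lower at 12 than at 4 weeks, with mean levels of 53.3% (Cacna1d) to 66.4% (Pcx) of those at 4 weeks. All 6 passed edgeR's quasi-likelihood test at an adjusted p under 0.05 in this comparison, in which 27.2% of all genes tested were called lower and 53.5% were called in either direction. The log2 fold changes lay between -0.91 and -0.59, against a median of -0.05 over all genes tested. In all 6, each of the 3 samples of 12 weeks was below each of the 3 of 4 weeks, a pattern found in 33.9% of genes in the lower direction. The study's own rule was a fold change of at least 1.5 with an unadjusted p under 0.05. By that fold rule all 6 were also lower at 12 against 4 weeks, beside 11% of all genes. A joint test over the 5 ages also called all 6, beside 56% of all genes.

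**Figure D1:**
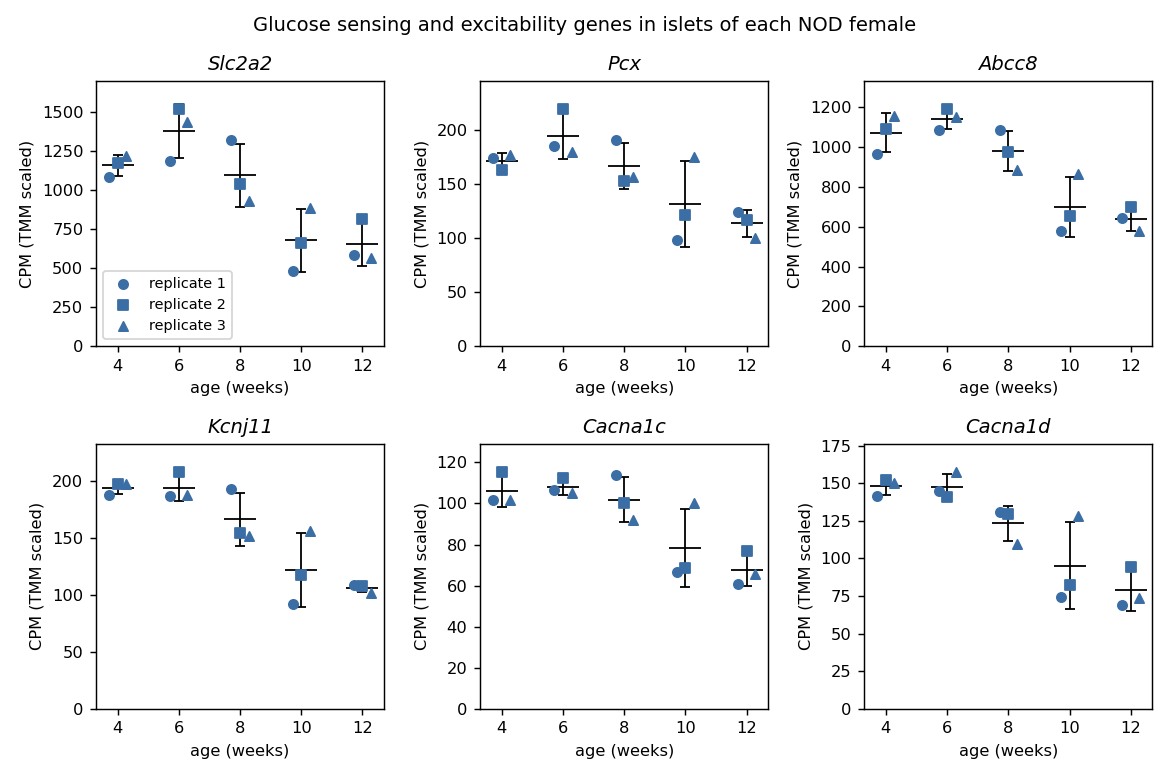
CPM (read counts scaled by library size and TMM factors, linear axes from 0) of the 6 genes against age in weeks, with 1 point per mouse shaped by replicate and the mean ± SD of 3 mice as black bars. All 12-week points lie below all 4-week points, and replicate 3 is the highest 10-week point for each of the 6 genes.

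Slc2a2, whose product is the low-affinity glucose transporter of mouse beta cells and hepatocytes, lies at chr3:28697903-28731359 on the plus strand (GRCm38), with 11 coding exons. Its RefSeq promoter window, from 250 bases before to 50 after the start site at chr3:28697653-28697952 (GRCm38.p6, plus strand), is shown because it is poor in CpG, with 2 CpG dinucleotides where the median of 32851 promoter windows held 7. Capitals mark matches, on either strand, to the E-box letters CANNTG or to CCAAT, which are found in 72.3% and 37.4% of all promoter windows. The 2 CCAAT matches read ATTGG on the printed strand, 77 and 56 bases before the start site; a match is a description of letters only.
Slc2a2 promoter: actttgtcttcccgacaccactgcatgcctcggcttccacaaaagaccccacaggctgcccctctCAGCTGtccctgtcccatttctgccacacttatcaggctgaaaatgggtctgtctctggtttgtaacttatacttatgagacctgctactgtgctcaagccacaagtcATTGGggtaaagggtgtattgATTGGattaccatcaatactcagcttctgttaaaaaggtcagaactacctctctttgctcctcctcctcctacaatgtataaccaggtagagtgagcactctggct

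Slc2a2 was measured at 1082, 1172 and 1215 CPM in the 3 mice of 4 weeks, and at 1182, 1515 and 1437 CPM in those of 6 weeks. The 8-week mice had 1318, 1038 and 926 CPM. Levels were 482, 661 and 886 CPM at 10 weeks and 581, 812 and 563 CPM at 12 weeks. Every late sample was below every early sample, the mean being highest at 6 weeks (1378 ± 174 CPM, SD, n = 3) and lowest at 12 weeks (652 ± 139 CPM). At 12 against 4 weeks the log2 fold change was -0.83 (SE 0.21, edgeR adjusted p = 0.00571). Late against early samples it was -0.93 (SE 0.15, edgeR adjusted p = 0.000182), the largest decrease among the 6 members in that comparison.

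Pcx encodes pyruvate carboxylase, which makes oxaloacetate from pyruvate and so refills the citric acid cycle. The gene lies at chr19:4510472-4621752 on the plus strand (GRCm38), with 20 coding exons. RefSeq gave 2 promoter windows, shown together because they differ in base composition. The upstream window, chr19:4510222-4510521, held 20 CpG and 3 CCAAT matches, and the downstream window, chr19:4594069-4594368, held 5 CpG and 1 CCAAT match (GRCm38.p6, plus strand, capitals as above). The counts are per gene, so the levels below cannot be assigned to either window.
Pcx upstream promoter: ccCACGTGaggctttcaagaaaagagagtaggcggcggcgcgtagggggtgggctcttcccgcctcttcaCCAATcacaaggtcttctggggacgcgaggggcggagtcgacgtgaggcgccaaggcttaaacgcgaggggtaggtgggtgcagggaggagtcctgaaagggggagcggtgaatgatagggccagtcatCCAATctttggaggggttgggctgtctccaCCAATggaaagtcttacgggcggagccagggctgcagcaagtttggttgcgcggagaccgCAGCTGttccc
Pcx downstream promoter: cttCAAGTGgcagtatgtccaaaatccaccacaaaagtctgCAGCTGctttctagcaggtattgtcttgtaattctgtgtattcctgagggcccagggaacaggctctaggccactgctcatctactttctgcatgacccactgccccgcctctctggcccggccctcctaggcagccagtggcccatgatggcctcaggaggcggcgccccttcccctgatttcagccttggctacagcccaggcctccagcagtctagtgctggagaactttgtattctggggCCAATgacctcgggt

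Pcx had 174, 163 and 177 CPM at 4 weeks and 185, 219 and 179 CPM at 6 weeks. The values at 8 weeks were 191, 152 and 156 CPM. At 10 weeks they were 97.9, 121 and 175 CPM, and at 12 weeks 124, 116 and 100.1 CPM. Replicate 3 of 10 weeks fell inside the early range, whereas the other 5 late samples were below all 6 early ones. Pcx had the smallest decrease of the 6 at 12 against 4 weeks, a log2 fold change of -0.59 (SE 0.17, edgeR adjusted p = 0.0119). Without replicate 3 of 12 weeks the adjusted p was 0.0529, and scaled by the library totals alone it was 0.0812. The gene overlaps Lrfn4 on the opposite strand, which had 21.5% as many counts, and the strand setting of the counting is not given in the sources used here, so reads of the pair may be mixed.

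The KATP channel genes Abcc8 and Kcnj11 are neighbours on chromosome 7, both on the minus strand and 3758 bases apart (GRCm38). Abcc8 lies at chr7:46104523-46180033 with 39 coding exons and encodes the sulfonylurea receptor Sur1. Kcnj11 lies at chr7:46093953-46100764, has its coding sequence in 1 exon and encodes the inward rectifier Kir6.2.

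Abcc8 had 967, 1093 and 1157 CPM at 4 weeks and 1086, 1190 and 1153 CPM at 6 weeks. Its 8-week values were 1086, 974 and 886 CPM. At 10 weeks it had 579, 652 and 867 CPM, and at 12 weeks 643, 697 and 577 CPM. No late sample reached the early range, and the 8-week samples straddled its lower edge. The log2 fold change at 12 against 4 weeks was -0.75 (SE 0.14, edgeR adjusted p = 0.00093).

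Kcnj11 had 187, 197 and 197 CPM at 4 weeks and 187, 208 and 187 CPM at 6 weeks. The 8-week mice had 192, 154 and 151 CPM. Levels of 91.6, 117 and 156 CPM were measured at 10 weeks and of 109, 107 and 102 CPM at 12 weeks. The 4-week and 12-week groups were both narrow, with SDs of 5.62 and 3.67 CPM, and the 10-week group was the widest, with an SD of 32.6 CPM. The log2 fold change at 12 against 4 weeks was -0.87 (SE 0.15, edgeR adjusted p = 0.000674), the smallest adjusted p of the 6 members.

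The L-type pore genes Cacna1c and Cacna1d are long genes on the minus strand, with 48 coding exons at chr6:118587240-119196418 and 49 at chr14:30039949-30491156 (GRCm38). RefSeq gave 3 promoter windows for Cacna1c, with 57, 7 and 3 CpG, and 2 for Cacna1d, with 63 and 4 CpG. The Cacna1d windows are shown because they differ widely in CpG. The window chr14:30353437-30353736 held more CpG than 99.97% of promoters, whereas chr14:30491107-30491406 held 3 TATAAA matches, counting both strands, of which 2 overlap, and TATAAA occurs in 13.6% of promoters (GRCm38.p6, minus strand, with E-box, CCAAT and TATAAA matches in capitals).
Cacna1d CpG-rich promoter: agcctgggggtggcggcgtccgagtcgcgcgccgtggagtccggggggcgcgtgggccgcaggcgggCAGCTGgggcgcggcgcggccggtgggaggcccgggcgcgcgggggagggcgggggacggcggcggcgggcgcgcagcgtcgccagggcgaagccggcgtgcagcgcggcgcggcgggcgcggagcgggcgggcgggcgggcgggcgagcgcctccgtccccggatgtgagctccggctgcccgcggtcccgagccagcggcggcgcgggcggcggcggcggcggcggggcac
Cacna1d upstream promoter: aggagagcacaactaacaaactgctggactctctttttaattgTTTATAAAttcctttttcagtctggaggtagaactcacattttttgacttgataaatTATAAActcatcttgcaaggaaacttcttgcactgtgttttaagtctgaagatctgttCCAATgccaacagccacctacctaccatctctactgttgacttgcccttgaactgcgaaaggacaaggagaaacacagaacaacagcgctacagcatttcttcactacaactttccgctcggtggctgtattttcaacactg

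Cacna1c, which encodes the Cav1.2 pore, had 102, 115 and 102 CPM at 4 weeks and 106, 112 and 105 CPM at 6 weeks. At 8 weeks it had 114, 100.3 and 91.7 CPM. The 10-week values were 66.5, 68.4 and 100.1 CPM and the 12-week values 60.7, 76.6 and 65.9 CPM. Replicate 3 of 10 weeks was just under the lowest early sample, while the other 5 late samples lay well below it. At 12 against 4 weeks the log2 fold change was -0.65 (SE 0.14, edgeR adjusted p = 0.00252).

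Cacna1d, which encodes the Cav1.3 pore, had 141, 152 and 150.4 CPM at 4 weeks and 145, 141 and 157 CPM at 6 weeks. The 8-week values were 131, 130 and 110 CPM, all below the early range. Levels of 74.5, 82.5 and 128 CPM followed at 10 weeks, and of 68.9, 94.3 and 73.4 CPM at 12 weeks. Its log2 fold change at 12 against 4 weeks, -0.91 (SE 0.17, edgeR adjusted p = 0.00111), was the largest decrease of the 6. Opposite-strand genes overlap both L-type genes: Dcp1b had 13.3% as many counts as Cacna1c, and Dcp1a had 31.6% and Chdh 4.06% as many as Cacna1d, so mixed reads are possible there too.

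Late against early, all 6 members passed the edgeR test in the lower direction, as did 33.7% of all genes, with log2 fold changes between -0.93 and -0.56. An exact two-sided permutation test of log2 CPM over 6 against 6 samples gave p = 0.00216, the smallest it can give, for 5 members, and p = 0.00649 for Pcx. Those 5 had no overlap between the groups, as had 17% of all genes in the lower direction. By the study's fold rule 4 members were lower (Slc2a2, Abcc8, Kcnj11 and Cacna1d), beside 9.62% of all genes. This comparison shares the 4-week and 12-week mice with the one above and is not separate evidence.

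For all 6 members the largest decrease between neighbouring ages was estimated from 8 to 10 weeks, but the calls there depended on single libraries. From 8 to 10 weeks, 2 of 6 members were called lower beside 8.37% of all genes: Slc2a2 with a log2 fold change of -0.69 (SE 0.21, edgeR adjusted p = 0.0433) and Abcc8 with -0.49 (SE 0.14, edgeR adjusted p = 0.0355). The values of the other 4 were -0.45 for Kcnj11, -0.38 for Cacna1c, -0.38 for Cacna1d and -0.34 for Pcx, with adjusted p from 0.0553 to 0.161. By the study's fold rule Slc2a2 alone was lower, beside 2.83% of all genes. Without replicate 3 of 10 weeks all 6 members were called, and without replicate 3 of 8 weeks 3 were. Without replicate 1 or 2 of either age 0 were. Over the same fits with 1 sample left out, 0 to 5697 of all genes were called in either direction. No member was called by edgeR from 4 to 6, 6 to 8 or 10 to 12 weeks, and none had an unadjusted p under 0.05 there, as 8.67%, 18% and 7.52% of all genes had; the exact test of edgeR and DESeq2 also called 0. In these 3 steps edgeR called 0.0906%, 0% and 0% of all genes. The step from 8 to 10 weeks minus that from 4 to 6 weeks was called for 0 of 6 members by edgeR beside 4.35% of all genes. Its unadjusted p was under 0.05 for Slc2a2 and Abcc8, beside 25.3% of all genes. DESeq2 called 2 members, beside 1944 of all genes. Slc2a2 had the largest estimate of that difference, -0.95 (SE 0.30, edgeR adjusted p = 0.0826).

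At 8 and 10 weeks the 6 genes had the same highest sample. At 4, 6 and 12 weeks no replicate was the highest or the lowest for all 6. At 10 weeks replicate 3 was the highest and replicate 1 the lowest sample for all 6. At 8 weeks replicate 1 was the highest for all 6. Leukocyte markers moved the other way at 8 and 10 weeks. Their sum was 1027 CPM in replicate 3 of 10 weeks, the lowest late value, and 2431 CPM in replicate 1 of 10 weeks, the highest. At 8 weeks it was 176 CPM in replicate 1 against 684 and 986 CPM in the other 2 mice. The sum also spread at the other ages, from 48.2 to 236 CPM at 4 weeks, 70.9 to 268 at 6 and 2010 to 2380 at 12. With the mean log2 CPM of the 22 leukocyte markers as a covariate, 0 of 6 members were called by edgeR at 12 against 4 weeks, with log2 fold changes from -0.55 (Cacna1d) to -0.071 (Pcx) and adjusted p from 0.663 to 0.967, and 2 genes were called in the whole table. Since the covariate rises with age, the age and the leukocyte content cannot be told apart in that model.

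**Figure D2:**
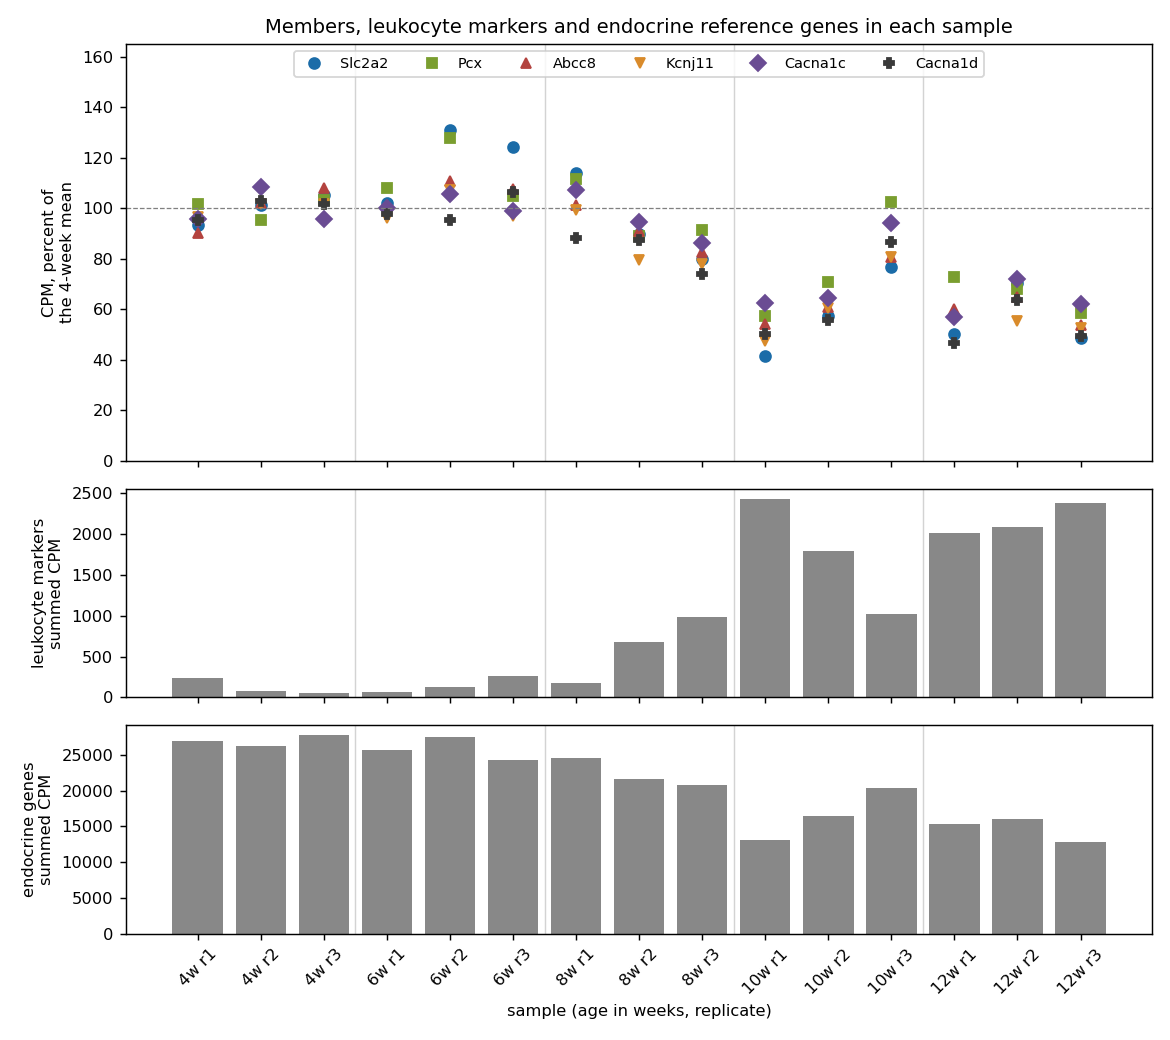
Top, CPM of each of the 6 genes in each of the 15 samples as a percent of that gene's 4-week mean (dashed line at 100); middle and bottom, summed CPM of the 22 leukocyte markers and of 12 endocrine reference genes in the same samples, on linear axes. The samples with the tallest leukocyte bars, between 1793 and 2431 CPM, have all 6 genes below their 4-week means.

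The general endocrine genes fell alongside. The reference list, made up of granule and endocrine identity genes such as Chga, Scg2, Neurod1 and Syp, summed to 24305 to 27726 CPM in early samples and 12826 to 20368 CPM in late ones, and 11 of its 12 genes were called lower at 12 against 4 weeks with a median log2 fold change of -0.88. All 8 beta-cell markers were called lower, with a median of -0.83, as were all 6 alpha-cell markers, with a median of -1.42. When samples were scaled by the 12 endocrine genes in place of TMM, which moved the median of all genes by 0.87, the members' log2 fold changes at 12 against 4 weeks lay between -0.047 (Cacna1d) and 0.27 (Pcx). On this scale 80.6% of all genes were called higher and 0.846% lower. Pcx was among those higher (SE 0.09, edgeR adjusted p = 0.0132) and the other 5 members were not called, among them Cacna1c at 0.22 (SE 0.10, adjusted p = 0.0644) and Slc2a2 at 0.031 (SE 0.13, adjusted p = 0.831). In late against early samples on the same scale, Pcx (0.15, SE 0.06, edgeR adjusted p = 0.0345) and Cacna1c (0.19, SE 0.07, edgeR adjusted p = 0.0282) were higher, as were 82.9% of all genes, and Slc2a2 was at -0.20 (SE 0.09, adjusted p = 0.0604). Relative to the endocrine genes the estimates of Pcx, Abcc8 and Cacna1c were thus above 0 in both comparisons, against decreases of all 6 members under TMM. Abcc8 was called in neither. The medians of all genes on this scale were higher than these estimates, at 0.82 for 12 against 4 weeks and 0.71 for late against early samples.

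**Figure D3:**
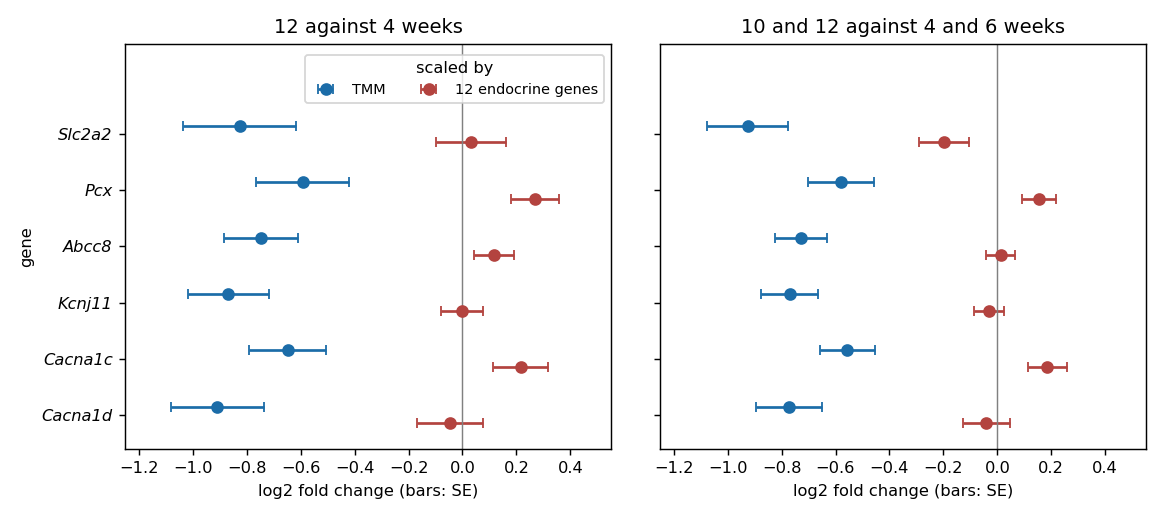
Log2 fold change (points) with its SE (bars) of the 6 genes at 12 against 4 weeks and in 10 and 12 against 4 and 6 weeks, scaled by TMM (blue) or by 12 endocrine genes (red). All blue points are below 0, from -0.93 to -0.56, and the red points lie between -0.20 and 0.27.

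Ratios between 2 members within a sample do not depend on the scaling between samples. Of the 15 pairs, 5 differed between late and early samples at an adjusted p under 0.05 (exact two-sided permutation tests over 6 against 6 samples, adjusted over the 15 pairs), and in all 15 the groups overlapped. Slc2a2 fell relative to Cacna1c by 0.38 on the log2 scale (exact p = 0.00433, adjusted 0.0325) and relative to Pcx by 0.35 (exact p = 0.0108, adjusted 0.0406). Kcnj11 fell relative to Cacna1c by 0.22 (exact p = 0.0152, adjusted 0.0455), and Pcx rose relative to Kcnj11 by 0.19 (exact p = 0.0108, adjusted 0.0406). Cacna1c rose relative to Cacna1d by 0.23 (exact p = 0.00433, adjusted 0.0325). Each of these pairs holds Pcx or Cacna1c, so they are not separate results. Reads of opposite-strand genes may be mixed into both genes, and their part in the ratios was not tested. These calls were fragile: with 1 sample left out in turn, 0 to 7 pairs passed, and 0 passed without replicate 3 of 6 weeks, replicate 1 of 10 weeks or replicate 3 of 10 weeks.

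The 2 subunits of the KATP channel kept close to a fixed ratio, which was not particular to this pair. Per gene length, in RPKM (reads scaled to gene length and library size), Abcc8 was 2.35 to 2.95 times Kcnj11 over the 15 samples, with age means between 2.51 and 2.74. Their log2 ratio differed by 0.05 between late and early samples (exact permutation p = 0.387, adjusted 0.484), against SDs of 0.10 and 0.09 within the groups. The log2 ratio of Kcnj11 to Cacna1d differed by 0.01 (exact permutation p = 0.883). That of Pcx to Cacna1c differed by -0.03 (exact permutation p = 0.740). Among the L-type pores, the RPKM of Cacna1d was 2.46 ± 0.14 times that of Cacna1c at 4 weeks (SD, n = 3) and 2.04 ± 0.11 times at 12 weeks.

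**Figure D4:**
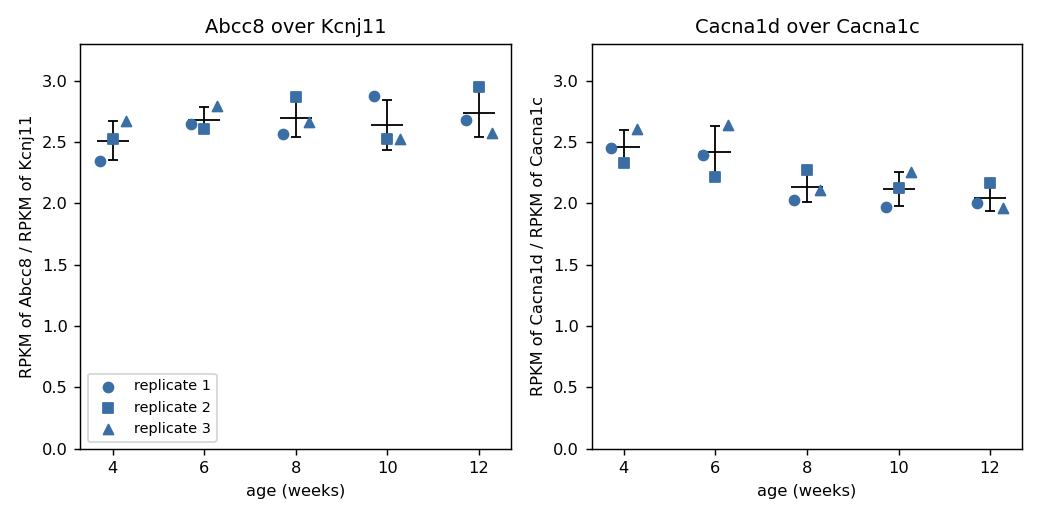
Ratio of RPKM of Abcc8 to Kcnj11 (left) and of Cacna1d to Cacna1c (right) against age in weeks, 1 point per mouse shaped by replicate, with the mean ± SD of 3 mice as black bars. The left ratio stays between 2.35 and 2.95, and the right one has a mean of 2.46 at 4 weeks and 2.04 at 12 weeks.

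Per gene length the order of levels was the same in all 15 samples. Slc2a2 was first with 82.1 to 219 RPKM, followed by Abcc8 with 70.2 to 122, Kcnj11 with 24.4 to 46.9, Pcx with 22.5 to 42.5, Cacna1d with 7.27 to 14.4 and Cacna1c with 3.64 to 5.95 RPKM. The closest neighbours were Kcnj11 and Pcx, whose ratio ran from 1.02 to 1.40 and whose ranges overlapped, as did those of Slc2a2 and Abcc8. The ranges of the other 3 neighbouring pairs did not overlap.

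Each KATP paralog was present at a low level per length. Kcnj8 and Abcc9, the pore and regulatory subunits of the vascular KATP channel, had medians of 1.34 and 1.86 RPKM, and rose at 12 against 4 weeks by log2 fold changes of 1.21 (SE 0.26, edgeR adjusted p = 0.0022) and 1.08 (SE 0.21, edgeR adjusted p = 0.00112). Both were measured in the same libraries in which the mesenchymal and smooth muscle markers were higher, and the part of such cells in the rise was not tested. Of the other L-type pores, the skeletal muscle gene Cacna1s had 0 to 4 counts in each 4-week sample and 64 to 96 in each 12-week sample, and was called higher (edgeR adjusted p = 0.000591). The retinal gene Cacna1f had 10 to 28 counts in any sample and a log2 fold change of 0.08 (SE 0.35, edgeR adjusted p = 0.863). Among all 10 voltage-gated calcium channel pores, Cacna1d had the highest median with 12.7 RPKM, ahead of the P/Q-type gene Cacna1a with 8.76 and Cacna1c with 5.38 RPKM.

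**Figure D5:**
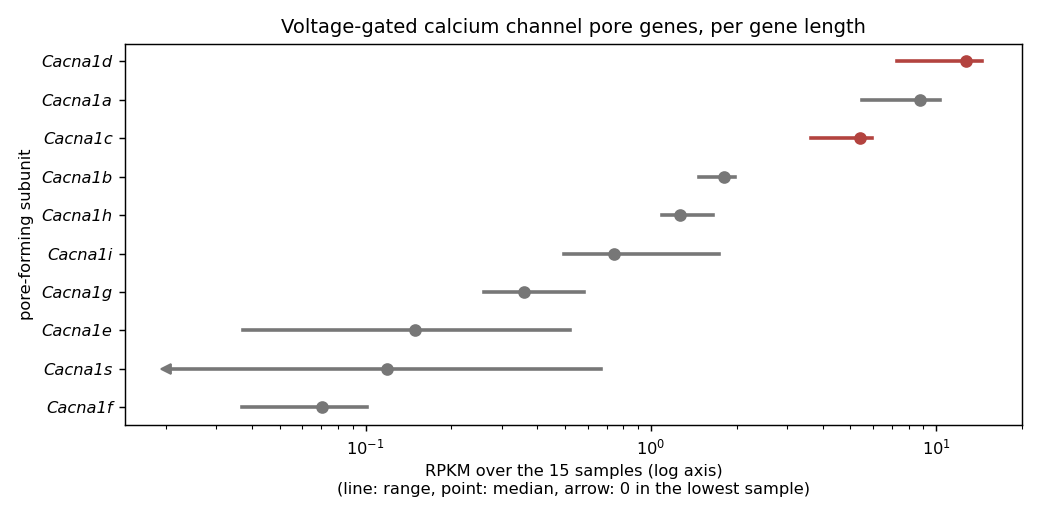
RPKM (log axis) of 10 voltage-gated calcium channel pore genes, with the range over 15 samples as a line and the median as a point; the 2 members are red and the arrow marks a gene with 0 in its lowest sample. Cacna1d, Cacna1a and Cacna1c have medians of 12.7, 8.76 and 5.38 RPKM, and the other 7 genes lie at or below 1.97 RPKM.

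The other genes of the pathway, in lists chosen by function, moved in both directions. With the leukocyte covariate edgeR called 0 genes of any of the 6 lists at 12 against 4 weeks, beside 2 of all genes tested. The counts in each list stand beside 26.3% of all genes called higher and 27.2% lower at 12 against 4 weeks, and, scaled by the endocrine genes, beside 80.6% higher and 0.846% lower. Scaled by the library totals, where 39.6% of all genes were called higher and 11% lower, the medians of 4 lists turned above 0, at 0.050 for mitochondrial fuel use, 0.071 for the potassium channels, 0.091 for the calcium channel subunits and 0.15 for calcium stores. Of 26 genes of glucose uptake and glycolysis, 12 rose, 7 fell and 7 were not called at 12 against 4 weeks, with a median log2 fold change of 0.25, and scaled by the endocrine genes 21 rose and 0 fell. The fructose transporter Slc2a5 fell from 214 ± 12 to 119 ± 16.3 CPM (SD, n = 3), and Aldoc, an aldolase, and Pfkm, the muscle-type phosphofructokinase, fell by 0.82 and 0.73 on the log2 scale, all 3 with signs that turned under the endocrine scaling. The hexokinases Hk2 and Hk3 rose from 1.18 ± 1.02 to 8.27 ± 1.81 CPM and from 1.20 ± 1.38 to 11.3 ± 3.73 CPM. Their signs turned when the leukocyte covariate was included, but neither was called in that fit.

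Of 33 tested genes of mitochondrial fuel use and anaplerosis, 4 rose, 13 fell and 16 were not called, with a median of -0.19, while scaled by the endocrine genes 32 rose and 0 fell and by the library totals 9 rose and 4 fell. Without replicate 1 of 12 weeks 2 rose. Pdk4, a kinase that inhibits pyruvate dehydrogenase, fell from 64.1 ± 1.38 to 32.3 ± 6.07 CPM, and its log2 fold change was -0.12 (adjusted p = 0.428) under the endocrine scaling. Idh2 and Pck2, mitochondrial isocitrate dehydrogenase and phosphoenolpyruvate carboxykinase, fell by 0.65 and 0.52 on the log2 scale but rose under the endocrine scaling. The largest increases were those of Cs, citrate synthase, at 0.58, Slc25a10, the dicarboxylate carrier, at 0.50, and Me2, a malic enzyme, at 0.47.

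Of 30 potassium channel genes other than Kcnj11 and Abcc8, 7 rose, 12 fell and 11 were not called, with a median of -0.17, while scaled by the endocrine genes 21 rose and 4 fell. The leak channels Kcnk3 and Kcnk16 fell from 28.8 ± 3.6 to 11.6 ± 2.37 CPM and from 113 ± 6.75 to 49.6 ± 8.35 CPM, and Kcnh6, an Erg-type channel, fell from 69.0 ± 7.0 to 30.7 ± 3.45 CPM. Their decreases kept their sign and their call under the endocrine scaling. The calcium-activated channel Kcnn4 rose from 2.43 ± 1.5 to 18.6 ± 1.94 CPM, and Kcns3 and Kcna2, voltage-gated subunits, rose by 1.94 and 1.47 on the log2 scale. The signs of Kcnn4 and Kcns3 turned with the leukocyte covariate, but neither was called in that fit.

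Of 17 other calcium channel subunits, 3 rose, 5 fell and 9 were not called, with a median of -0.16, while scaled by the endocrine genes 13 rose and 1 fell. The auxiliary gene Cacng4 fell from 8.72 ± 1.52 to 3.45 ± 0.85 CPM, Cacna1a fell by 0.71 on the log2 scale and Cacnb2, an auxiliary beta subunit, by 0.53, the last 2 with signs that turned under the endocrine scaling. Besides Cacna1s, the R-type pore Cacna1e rose from 1.26 ± 0.28 to 9.93 ± 2.91 CPM and the T-type pore Cacna1i from 6.54 ± 0.66 to 14.8 ± 3.66 CPM.

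Of 20 sodium and other depolarising channel genes, 4 rose, 9 fell and 7 were not called, with a median of -0.42, while scaled by the endocrine genes 13 rose and 0 fell. The sodium channel Scn3a fell from 28.7 ± 3.28 to 15.2 ± 1.62 CPM, and Hcn2, a hyperpolarisation-activated channel, and Trpc1, a cation channel, fell by 0.75 and 0.73 on the log2 scale, with signs that turned under the endocrine scaling for the last 2, where Scn3a was not called. The mechanosensitive channel Piezo1 rose from 12.5 ± 2.32 to 48.6 ± 7.28 CPM, and Trpm2, a cation channel also used by leukocytes, rose by 1.30 on the log2 scale. The signs of Piezo1 and Trpm2 turned with the leukocyte covariate, but neither was called in that fit.

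Of 21 genes of calcium stores and clearance, 6 rose, 8 fell and 7 were not called, with a median of -0.09, while scaled by the endocrine genes all 21 rose; without replicate 1 of 12 weeks 5 fell. Atp2a2 and Atp2a3, the pumps that fill the endoplasmic reticulum, fell from 2511 ± 124 to 1578 ± 160.0 CPM and from 1453 ± 108 to 936 ± 87.4 CPM, and Atp2b2, a plasma membrane pump, fell by 0.52 on the log2 scale, all 3 with signs that turned under the endocrine scaling. The ryanodine receptor Ryr1 had 0 to 4 counts in each 4-week sample and 30 to 41 in each 12-week sample. Ryr3, another ryanodine receptor, and Itpr2, an inositol trisphosphate receptor, rose by 2.13 and 2.09 on the log2 scale.

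Profiles were also compared across the 13297 genes with a mean log2 CPM of at least 1, by the root mean square difference of log2 CPM over the 15 samples after centring each gene on its mean. Nearest to Slc2a2 were Steap2, Ptprt and Pcyt1b, with differences of 0.10, 0.10 and 0.10 on the log2 scale. For Pcx they were Pla2g2f, Tbc1d16 and Fbxo21, for Abcc8 Ank, Ptprf and 5330417C22Rik, and for Kcnj11 0610040J01Rik, Rundc3a and Syt13. For the L-type pores they were Neo1 and Cpeb1 (Cacna1c) and Kif21a, St18 and Cdh8 (Cacna1d). The smallest difference was 0.05, between Kcnj11 and 0610040J01Rik, and no member was among the 3 nearest genes of another member.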

How the data were processed

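Islets were isolated by collagenase digestion from NOD/ShiLtJ females, 3 mice at each of 5 ages, and polyadenylated RNA was sequenced. Per the study's methods, the authors trimmed, aligned and counted the reads in CLC Genomics Workbench with default settings, and the submitters' processing notes give the build as mm10. Raw counts per gene were deposited and were used for every test; RPKM values (reads scaled to gene length and library size), deposited by the authors, were used only for levels between genes. The 30 per-sample TPM and CPM columns were not used. The strand setting and any batch are not given in the sources used here.

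Counts were fitted with edgeR 4.0.16 in R 4.3.3 (filterByExpr, TMM factors, quasi-likelihood test, 1 mean per age, all 15 samples), with Benjamini-Hochberg adjustment over the 16554 genes tested and a threshold of 0.05. Log2 CPM used a prior count of 2. Exact permutation tests were two-sided (Python 3.11.15, scipy 1.17.1); with 3 against 3 samples the smallest p is 0.1 and with 6 against 6 it is 0.00216. The fit was also run on simulated data, and the outcome is not reported here. Replicates were separate mice, and their counts differed by more than sampling noise (chi-square of 15.9 to 127 per degree of freedom). At the depths found, the floor of 3 counts corresponds to 0.0754 to 0.128 CPM. Alternatives were DESeq2 1.42.0 and its size factors, library totals, scaling by 12 endocrine genes, no filter, the compared ages alone, edgeR's exact test, a leukocyte covariate, a replicate block, each sample left out, and, added after seeing the data, 2 libraries with intestinal reads left out.

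The members and gene lists were chosen with earlier results of these data known. Of the lists, 22 of 23 leukocyte and 20 of 21 depolarising channel genes matched by name. Named besides the members were their KATP and L-type paralogs, up to 3 largest increases and decreases among called genes of each pathway list, and 3 nearest profiles per member; some genes that this rule names are not reported here. Promoters are RefSeq windows of 300 bases (GRCm38.p6), given for 4 of 6 members; coordinates are those of the files.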

Additional observations from a re-analysis of the deposited data

How the results depend on the processing

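The 6 members were called lower at 12 against 4 weeks and in late against early samples with DESeq2, with its size factors, without the filter and in the ages alone; library totals lost Pcx at 12 against 4 weeks. Scaling by endocrine genes left 0 members called lower in either comparison. On that scale Pcx was called higher at 12 against 4 weeks, as were 80.6% of all genes. Pcx and Cacna1c were called higher in late against early samples, as were 82.9% of all genes. Over the 5 ages 1 member was called on that scale, and the share of all genes for it is not given here. The leukocyte covariate left 0 members called in each comparison. With it, 2 of all genes were called at 12 against 4 weeks and 0 in late against early samples. With 1 sample left out, 5 to 6 were called at 12 against 4 weeks, beside 7151 to 8311 of all genes. At 10 against 8 weeks, 0 were called with library totals, endocrine scaling, no filter, the covariate or the ages alone. The same held for edgeR's exact test and with both libraries with intestinal reads left out. There DESeq2 called 4 members, beside 4096 of all genes. With 1 sample left out 0 to 6 were called, beside 0 to 5697 of all genes. The step difference gave 2 with DESeq2, beside 1944 of all genes, and 0 to 6 with 1 sample left out, beside 2 to 3176. The 5 pairs of members became 0 to 7 with 1 sample left out. The cause was not tested.

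Mice of different ages were different animals. Of 30 same-numbered pairs of samples, 7 had deviations from the age means that correlated over 0.1 (range -0.64 to 0.51), and in 14 of 60 cases a sample correlated best with its own number, so the numbers did not pair the samples. With replicate number as a block, 0 members were called at 10 against 8 weeks, and all genes called there went from 2776 to 0; it changed no other call of a member.

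Signs that turned were as follows, in log2 units. Under endocrine scaling at 12 against 4 weeks, Slc2a2 was 0.031, Pcx 0.27, Abcc8 0.12, Cacna1c 0.22, Slc2a5 0.016, Aldoc 0.050, Pfkm 0.13, Idh2 0.21, Pck2 0.35, Cacna1a 0.15, Cacnb2 0.34, Hcn2 0.11, Trpc1 0.12, Atp2a2 0.19, Atp2a3 0.23 and Atp2b2 0.34. In late against early samples Pcx was 0.15, Abcc8 0.012 and Cacna1c 0.19, and at 10 against 8 weeks Pcx was 0.060, Cacna1c 0.036 and Cacna1d 0.025. With the leukocyte covariate at 12 against 4 weeks, Hk3 was -2.81, Hk2 -1.68, Kcnn4 -0.70, Kcns3 -0.14, Piezo1 -0.0072 and Trpm2 -0.17. These genes were not called in that fit. Cacna1f at 12 against 4 weeks was -0.016 with both libraries left out and ran from -0.069 to 0.25 with 1 sample left out.

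Over all genes, 15 were called at 6 against 4 weeks, but 264 by edgeR's exact test, 249 by DESeq2, 141 with the covariate, 139 in the ages alone, 5 with the block, 4 without the filter and 0 under endocrine scaling. At 8 against 6 weeks the main count was 0, with 183 by the exact test and 543 by DESeq2. At 10 against 8 weeks it was 2776, with 7476 under endocrine scaling, 156 by the exact test, 1162 without both libraries and 0 with the covariate, without the filter or in the ages alone. At 12 against 10 weeks it was 0, with 7 by the exact test and 12 by DESeq2. At 12 against 4 weeks it was 8858, with 13481 under endocrine scaling and 2 with the covariate. The share of calls that were higher there was 49.2%, but 78.3% with library totals, which moved the median of all genes by 0.25, and 99.0% under endocrine scaling.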

Other observations

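Other cell types in the same libraries can be set beside the members. All 6 alpha-cell markers, among them Gcg, the glucagon gene, were called lower at 12 against 4 weeks with a median log2 fold change of -1.42, and 5 of 6 remained lower when scaled by the endocrine genes (median -0.56). Of 4 delta-cell markers, 2 were called lower with TMM (median -0.44) and 0 lower and 3 higher under the endocrine scaling (median 0.42), where 80.6% of all genes were higher; with TMM 3 were lower without replicate 1 of 12 weeks, and 1 without replicate 3 of 4 weeks or replicate 2 or 3 of 12 weeks. Of 7 endothelial markers 3 were called higher, and 2 with any 1 sample of either age left out. Of 8 Schwann and neuron markers 4 were called higher and 1 lower, but 1 was higher without replicate 3 of 12 weeks or without the filter on low counts, and 2 without replicate 1 or 2 of 4 weeks or replicate 2 of 12 weeks. These counts stand beside 26.3% of all genes called higher and 27.2% lower. Of 12 acinar markers 0 were called by edgeR or DESeq2 in all samples (median log2 fold change 0.87), and 0 had an unadjusted p under 0.05 by edgeR, but without replicate 2 of 4 weeks 11 were called higher by edgeR (median 2.60). Their sum ranged from 1593 to 18732 CPM over the 15 libraries.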
